A study of Mus musculus with 19 samples.

Results

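Chemokines are small secreted proteins that draw white blood cells to a site, and chemokine receptors are the G protein-coupled receptors through which the cells sense them. The genes described here are the rows of the deposited count table named Ccl, Cxcl, Cx3cl or Xcl (chemokines) and Ccr, Cxcr, Cx3cr or Xcr (receptors) with a number. This rule found 58 genes of the 35976 rows, 39 chemokines and 19 receptors. It used names only, so no measured value picked single members, but it was set with earlier results of these data known. Of the 58, 27 had enough counts for a test (17 chemokines and 10 receptors), and 16463 genes of the whole table did.

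RNA was sequenced from the livers of 19 mice, with 1 library per mouse. The groups were 6 Pkd1 Homo, 6 Pkd1 Het and 7 Pkd1 WT mice, described in the series as littermates. All mice, WT included, received AAV-Cre (a viral vector that delivers Cre recombinase) and were kept for 3 months on Western diet plus carbon tetrachloride (CCl4), a model of non-alcoholic steatohepatitis (NASH), in which fat and a liver toxin bring inflammation and scarring. Pkd1 encodes polycystin-1, the membrane protein mutated in most polycystic kidney disease. The labels give no age, no sex, no promoter for Cre and no statement of which cells it reached, so a Homo liver may hold cells that still carry intact Pkd1. The sample titles carry a running number, referred to as the mouse number, and no source used here explains it.

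Chemokines fall into classes by the spacing of the first cysteines of the mature protein. In the CC class these are adjacent, in the CXC class 1 residue lies between them, in the CX3C class 3 do, and the C class lacks one of them. CC chemokines such as Ccl2 draw mainly monocytes and lymphocytes. CXC chemokines are known for drawing neutrophils (Cxcl1 and its neighbours) or activated T cells (Cxcl9, Cxcl10 and Cxcl11), and Cxcl12 holds blood progenitors and lymphocytes through Cxcr4. In the liver, Kupffer cells, endothelium, stellate cells, bile duct cells and injured hepatocytes are all known sources. The codons below, from GENCODE M21 coding sequences, are shown because they carry these classes in the genes on which the results turn, with Xcl1 added for the C class. Capitals mark the cysteine codons.
Ccl28 (CC class, chromosome 13): gcctccagcTGTTGCactgaggtg
Ccl24 (CC class, chromosome 5): ccctcatctTGCTGCacgtccttt
Cxcl12 (CXC class, chromosome 6): agctaccgaTGCcccTGCcggttcttc
Cxcl1 (CXC class, chromosome 5): gagctgcgcTGTcagTGCctgcagacc
Cx3cl1 (CX3C class, chromosome 8): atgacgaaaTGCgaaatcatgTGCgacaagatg
Xcl1 (C class, chromosome 1): gagagtagcTGTgtgaactta

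A library held between 25.8 and 42.1 M counts (M is the SI prefix mega). Together the members took 0.0199% to 0.0302% of all counts in a library, and Cxcl12 alone made 72.3% of the members' counts. Hepatocyte markers were abundant in every liver, with 6 markers summing to 22600 to 28400 CPM (counts scaled to library size) in Homo, 22000 to 26500 in Het and 22700 to 26500 in WT. Pkd1 averaged 357 ± 19.7 CPM in Homo (SD, n = 6), 390 ± 46.2 in Het (n = 6) and 405 ± 38.6 in WT (n = 7), and it did not pass in any comparison. Its counts cover the whole gene, so they do not check the labels. Markers of pancreas and fat summed to 54.8 and 82.2 CPM in Homo mice 8 and 17 and to 43.6 CPM in Het mouse 19, against at most 4.54 CPM in the other 16 livers, so the counts of calls are also given without mice 8, 17 and 19.

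Levels were compared between genes as CPM per kb of exon, averaged over the 19 mice, with all annotated exons of a gene merged into its length. Cxcl12 stood first, at 22.5 ± 3.74 CPM per kb (SD, n = 19). In every mouse it was above every other member: its lowest mouse had 16.8 CPM per kb, and the highest mouse of Ccl27a, the next gene, had 6.60. Ccl27a, known as a skin chemokine that acts on Ccr10, averaged 4.53 ± 1.15 CPM per kb. That value is uncertain, since 45.0% of the 50-base stretches of its transcripts also occur in near-identical copies such as Ccl27b, and the treatment of shared reads is not given in the sources used here. Cxcl16, a membrane-bound chemokine that acts on Cxcr6, was at 3.25 ± 0.458 CPM per kb. A gene on the other strand, Zmynd15, covers 18.3% of its exon length, so some of its counts may be shared. Ccl9 and Ccl6, rodent chemokines of myeloid cells, were at 3.14 ± 0.621 and 1.94 ± 0.459 CPM per kb, and Cxcl9 was at 1.59 ± 0.734. Cxcl16 and Ccl9 lay closer to each other than their spread between mice, and so did Ccl6, Cxcl9 and Ccl5 (1.52 ± 0.636).

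Receptors lay lower than the leading chemokines. Cxcr4, the receptor of Cxcl12, led them at 0.940 ± 0.321 CPM per kb (SD, n = 19). Ccr2, which marks recruited monocytes, followed at 0.623 ± 0.142. Cxcr6, known on liver-resident T and NK cells, was at 0.410 ± 0.109, and Cx3cr1, known on monocytes and some resident macrophages, was at 0.347 ± 0.133. Cxcr6 and Cx3cr1 lay within their spread of each other. Ccr6, the receptor of Ccl20 on B cells and some T cells, averaged 0.361 with an SD of 0.407, larger than its mean. Of the tested receptors, Ccr10, Ccr9, Ccr7 and Xcr1 had the lowest means per kb. The order of the receptors rests on exon lengths, such as 1.808 kb for Cxcr4, 6.76 kb for Ccr2 and 10.26 kb for Ccr9. In CPM, the group means of Ccr2 (3.86 to 4.39) lay above those of Cxcr4 (1.63 to 1.80), and those of Ccr9 ran from 1.57 to 2.33. Xcr1, which marks the dendritic cells that cross-present antigen, had 0.255 to 0.435 CPM in Homo, 0.120 to 0.398 in Het and 0.117 to 0.538 in WT livers.

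**Figure D1:**
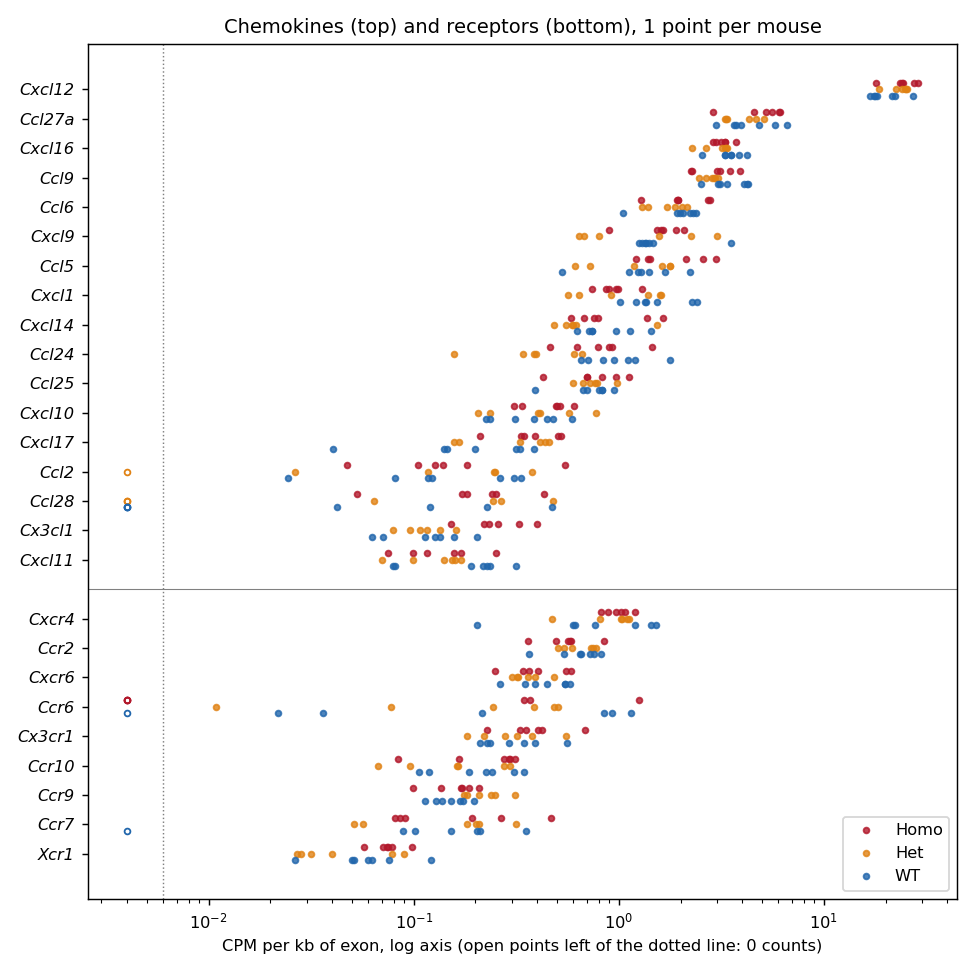
Level of tested chemokines (top) and receptors (bottom) in each mouse, in CPM per kb of exon on a log axis, with Homo, Het and WT mice in separate colours and open points for 0 counts. Cxcl12 lies between 16.8 and 28.7 CPM per kb and above all other members, while Ccr6 and Ccl28 have livers at 0 counts beside livers with some of the higher values of the same gene.

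The other 31 members did not have enough counts for a test, and together their rows held 0.000236% of all counts. Of these, 25 had some counts. Among them were chemokines commonly found in inflamed liver: Ccl3 and Ccl4, made by activated myeloid and lymphoid cells, had 100 and 101 counts over all 19 libraries, Ccl17 and Ccl22, chemokines of dendritic cells, had 80 and 82, and Cxcl5 and Cxcl2, which draw neutrophils, had 71 and 41. Xcl1, the ligand of Xcr1 made by NK and T cells, had 74 counts, Cxcl13, which draws B cells, 65, Ccl20 30, Ccl11, which draws eosinophils, 28, Ccl7 23 and Ccl8 21. Ccl12 had 4 counts, and Ccl1, Cxcl3 and Cxcl15 had 2 each. Among receptors, Ccr3 had 377 counts, Ccr1 120, Cxcr2, the neutrophil receptor of Cxcl1, 112, Cxcr5 110, Cxcr3, the receptor of Cxcl9 and Cxcl10, 52, Ccr4 28, Cxcr1 27, Ccr1l1 7 and Ccr8 1. No count fell on Ccl19, Ccl21a, Ccl21b, Ccl21c, Ccl26 or Ccl27b. For Ccl19, Ccl21a, Ccl21b and Ccl27b, between 52% and 100% of the 50-base stretches also occur in other genes, so a count of 0 in their rows does not show that the RNA was not there.

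No member passed between genotypes. The comparison of Homo with WT asks what differs when both alleles of Pkd1 are mutant. By edgeR's quasi-likelihood test with Benjamini-Hochberg adjustment over the 16463 genes, 0 of 27 members were called at an adjusted p under 0.05, where 0.48% of all tested genes were (79 genes). At an unadjusted p under 0.05 it was 3 of 27 members, where 12.9% of all genes passed. The Homo and WT values overlapped for each of the 27 members, where 0.911% of all genes had groups that did not overlap. The median log2 fold change of the members was 0.10, with 18 of 27 above 0, against a median of 0.0019 over all tested genes, of which 50.3% were above 0. DESeq2 called 1 member, Cx3cl1 (adjusted p = 0.0275), and 304 genes in all. The p-values measure the spread between these mice only.

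Cx3cl1 (fractalkine, chr8:94772009-94782427 in GRCm38, plus strand) had the smallest p in Homo against WT. It is a membrane-anchored chemokine of epithelium and endothelium that holds cells bearing Cx3cr1. It had 1.01, 1.28, 0.915, 0.869, 1.56 and 0.598 CPM in Homo livers, against 0.277, 0.802, 0.616, 0.500, 0.528, 0.245 and 0.448 CPM in WT livers (lowest 0.245, median 0.500, highest 0.802). Of the Homo livers, 5 of 6 lay above the highest WT liver, and mouse 18, at 0.598 CPM, lay within the WT range. The log2 fold change was 1.08 ± 0.29 (SE; adjusted p = 0.108), and adjusted p ranged from 0.0275 with DESeq2 to 0.662 within mice 8 to 13. In Het livers Cx3cl1 had 0.378, 0.530, 0.310, 0.631, 0.421 and 0.456 CPM. Homo was also above Het, by 1.18 ± 0.30 on the log2 scale (adjusted p = 0.190, and 0.0412 with DESeq2), with 5 of 6 Homo livers above the highest Het liver. These comparisons share the Homo mice. Without mice 8, 17 and 19, Homo stood on the log2 scale 0.89 above WT (adjusted p = 0.268) and 0.97 above Het (adjusted p = 0.616).

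Some markers of bile duct cells moved with Cx3cl1. All 7 listed markers were tested, and the list was chosen with earlier results of these data known, so its counts are a description. In Homo against WT 3 of 7 passed (the keratins Krt7 and Krt19 and the mucin Muc1), where 0.48% of all tested genes did. In Homo against Het 3 of 7 passed (Krt7, Krt19 and the adhesion molecule Epcam), where 0.182% of all tested genes did. All of these were higher in Homo. In Homo against WT 5 of 7 were above 0, while the chloride channel gene Cftr had a log2 fold change of -0.64 ± 0.61 (adjusted p = 0.703) and the transcription factor gene Sox9 one of -0.12 ± 0.23 (adjusted p = 0.874). In Homo against Het 7 of 7 were above 0. The summed level of the 7, most of it from Spp1 (126 CPM on average in Homo, 72.6 in Het and 81.6 in WT livers), was 121 to 163 CPM in Homo, 61.9 to 117 in Het and 57.2 to 159 in WT livers, and none was at 0. Over the 19 mice, Cx3cl1 followed the bile duct score (the mean of the markers' standardised log2 CPM) with Pearson's r = 0.70 and Spearman's rho = 0.64 (permutation p = 0.00086, adjusted over 486 pairs p = 0.0937). Without the 2 mice farthest from the median score r was 0.58, and between deviations from the genotype means it was 0.21. Other lists also went with Cx3cl1. With the stellate cell and fibroblast score r was 0.57 (adjusted p = 0.402), and 0.49 between deviations from the genotype means. With the macrophage score r was 0.45 (adjusted p = 0.554), and 0.61 between deviations. The part of bile duct cells in the difference between genotypes was not tested. In bulk tissue, fewer cells of a type and less RNA per cell cannot be told apart. Its receptor gene Cx3cr1 had 1.82, 1.90, 1.48, 3.07, 1.59 and 1.03 CPM in Homo, 0.820, 0.994, 2.48, 1.44, 1.26 and 1.70 CPM in Het and 1.31, 2.51, 1.03, 1.75, 1.06, 0.949 and 1.55 CPM in WT livers, so the 3 groups overlapped widely.

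Cxcl1 and Cxcl12 came next in Homo against WT. Cxcl1, a neutrophil attractant made by many stressed cells, had 1.85, 2.44, 1.39, 1.62, 1.67 and 1.82 CPM in Homo livers, against 1.89, 2.54, 2.87, 2.28, 4.53, 4.26 and 2.51 CPM in WT livers (lowest 1.89, median 2.54, highest 4.53). Of the Homo livers, 5 of 6 lay below the lowest WT liver. The log2 fold change was -0.73 ± 0.26 (adjusted p = 0.242). In Het livers Cxcl1 ran from 1.06 to 3.01 CPM, across both other groups. Neutrophil markers, of which 3 of 7 were tested, summed to 12.6 to 38.0 CPM in Homo, 15.0 to 26.4 in Het and 18.9 to 30.9 in WT livers, with 1 of the 7 at 0 in all Homo mice and 1 at 0 in all WT mice. Most of that sum came from Csf3r (19.0 CPM on average in Homo, 18.6 in Het and 22.4 in WT livers), so it says little about the other markers.

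Cxcl12 (chr6:117168535-117181367 in GRCm38, plus strand) had 147, 193, 199, 225, 197 and 235 CPM in Homo livers, against 137, 144, 145, 175, 149, 222 and 181 CPM in WT livers (lowest 137, median 149, highest 222). The groups overlapped, with 5 of 6 Homo livers above 6 of the 7 WT livers. The log2 fold change was 0.28 ± 0.12 (adjusted p = 0.324), and within mice 8 to 13, which hold 2 Homo and 4 WT mice, its sign turned to -0.10. Het livers had 152 to 207 CPM.

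**Figure D2:**
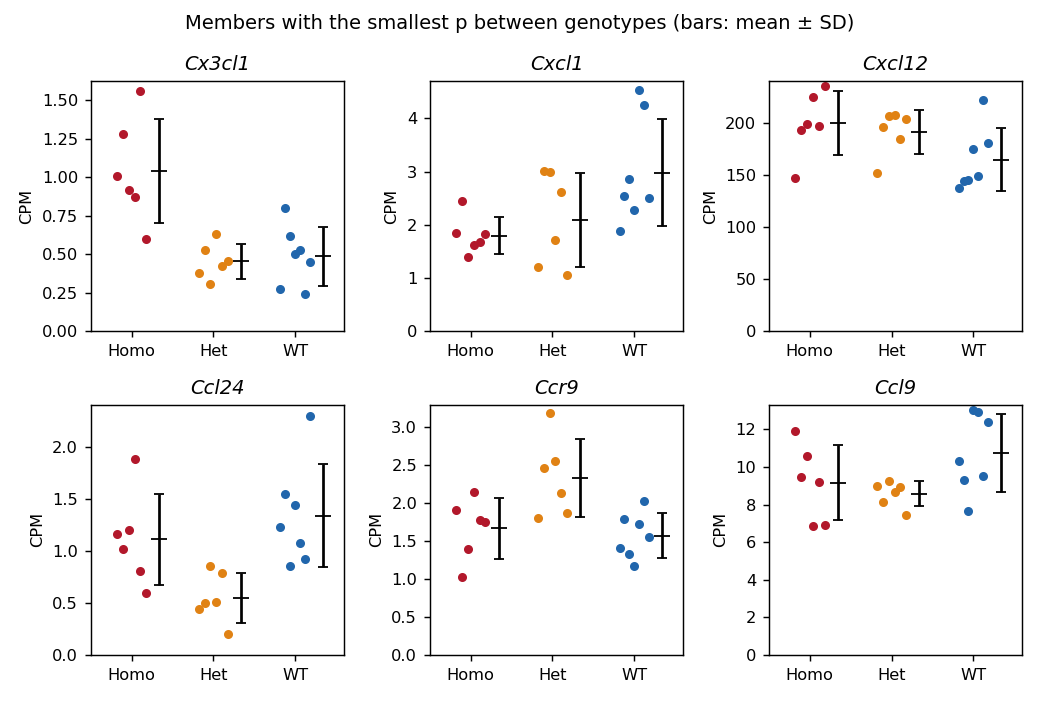
CPM of the 6 members with the smallest p between genotypes, with 1 point per mouse and bars for mean ± SD, for Homo (n = 6), Het (n = 6) and WT (n = 7) from left to right. For Cx3cl1, 5 of 6 Homo points lie above all Het and WT points. For Ccl24 the Het points lie between 0.203 and 0.853 CPM and overlap the lower Homo points.

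The comparison of Het with WT asks what differs when 1 allele is mutant. It called 0 of 27 members, where 0.0243% of all genes were called (4 genes), and DESeq2 also called 0. At an unadjusted p under 0.05 it was 3 of 27, where 8.84% of all genes passed. The members' median log2 fold change was -0.12, with 9 of 27 above 0, against -0.0043 over all tested genes, of which 49.1% were above 0. Groups did not overlap for 0.194% of all genes and for none of the 27 members.

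Ccl24 (chr5:135569937-135573049, GRCm38, minus strand), an eosinophil attractant made by macrophages, had the smallest p in Het against WT. It had 0.442, 0.497, 0.853, 0.511, 0.785 and 0.203 CPM in Het livers, against 1.23, 1.55, 0.850, 1.44, 1.08, 0.918 and 2.30 CPM in WT livers (lowest 0.850, median 1.23, highest 2.30). The groups met at a single point: mouse 7 of the Het group, at 0.853 CPM, lay just above WT mouse 3, at 0.850 CPM, and the other 5 Het livers lay below all WT livers. The log2 fold change was -1.29 ± 0.33 (adjusted p = 0.342). Homo livers had 1.16, 1.02, 1.20, 1.88, 0.807 and 0.598 CPM, within or below the WT range, and their log2 fold change was -0.27 ± 0.31 against WT (adjusted p = 0.763) and 1.02 ± 0.34 against Het (adjusted p = 0.455). Kupffer cell markers, 5 of 5 tested and none at 0, summed to 47.0 to 66.5 CPM in Homo, 40.6 to 67.8 in Het and 57.5 to 71.1 in WT livers. The largest parts of that sum were Cd5l (25.5 CPM on average in Homo, 25.8 in Het and 31.9 in WT livers) and Clec4f (19.0, 16.7 and 18.9). In Het against WT 1 of 5 was above 0, Marco, which averaged 4.61 CPM in Het and 2.97 in WT livers. In Homo against WT 2 of 5 were above 0 (median -0.129). Over the 19 mice Ccl24 followed the Kupffer cell score with r = 0.75 and rho = 0.64 (permutation p = 0.00036, adjusted over 486 pairs p = 0.0875), r = 0.55 without the 2 mice farthest from the median score, and r = 0.74 between deviations from the genotype means. The part of Kupffer cell number in the level of Ccl24 was not tested.

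Ccr9 and Ccl9 had the next smallest p in Het against WT. Ccr9, the gut-homing receptor of Ccl25, had 1.80, 2.45, 3.18, 2.55, 2.13 and 1.87 CPM in Het livers, against 1.41, 1.79, 1.32, 1.17, 1.72, 2.02 and 1.55 CPM in WT livers (lowest 1.17, median 1.55, highest 2.02). Of the Het livers, 4 of 6 lay above the highest WT liver. The log2 fold change was 0.57 ± 0.19 (adjusted p = 0.421), while Homo against Het gave -0.48 ± 0.19 (adjusted p = 0.692). Homo livers ran from 1.02 to 2.14 CPM. A gene on the other strand covers 18.8% of the exon length of Ccr9, and no source used here gives the strand setting of the counting, so reads of the 2 genes cannot be told apart there. Ccl9 had 7.45 to 9.27 CPM in Het (median 8.80), 6.87 to 11.9 CPM in Homo (median 9.33) and 7.65 to 13.0 CPM in WT livers (median 10.3). Het livers lay in the lower part of the WT range, and the log2 fold change of Het against WT was -0.32 ± 0.14 (adjusted p = 0.525).

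The comparison of Homo with Het called 0 of 27 members, where 0.182% of all genes were called (30 genes). DESeq2 called 1, Cx3cl1, and at an unadjusted p under 0.05 edgeR counted 3 of 27, where 6.29% of all genes passed. For none of the 27 were the groups apart, where 0.686% of all genes had groups apart. The members leaned to one side: 24 of 27 log2 fold changes were above 0 (88.9%), 16 of 17 chemokines and 8 of 10 receptors, where 49.7% of all tested genes were above 0. Their median was 0.23, against -0.0012 over all tested genes. The members below 0 were Cxcl1, Ccr2 and Ccr9. The count was 18 of 26 within mice 14 to 20 and 20 of 27 without mice 8, 17 and 19, and between 21 and 24 when 1 library was left out. Het against WT and Homo against Het share the Het mice. Members are not independent replicates, and no test was made of this count.

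Markers of several cell types stood beside this count, and not all lists leaned the same way. The 6 monocyte markers summed to 10.5 to 14.6 CPM in Homo livers, against 6.26 to 9.68 CPM in Het livers, with no overlap, and 7.30 to 12.9 CPM in WT livers. The largest part of that sum was Plac8, with 5.86 to 8.88 CPM in Homo and 3.98 to 6.15 in Het livers, which overlap. Of the 5 tested markers 4 were above 0 in Homo against Het, and S100a4 averaged 0.361 CPM in Homo and 0.418 in Het livers. No share of other such sums without overlap was computed. The 8 T cell markers in the table summed to 4.05 to 7.74 CPM in Homo, 2.37 to 4.50 in Het and 2.33 to 6.81 in WT livers. Of the 7 macrophage markers, 7 were above 0 in Homo against Het, with a median log2 fold change of 0.12. The B and plasma cell and dendritic cell lists lay below 0 at the median. Of their markers 2 of 5 (median -0.25) and 2 of 6 (median -0.06) were above 0. The remaining white blood cell lists lay above 0 at the median. These were neutrophils (3 of 3 markers above 0, median 0.292) and NK and cytotoxic cells (3 of 5, 0.22). The others were mast cells, basophils and eosinophils (2 of 2, 0.775), Kupffer cells (3 of 5, 0.0755) and lipid-associated macrophages (3 of 5, 0.00641). Among lists of other cells, 7 of 8 stellate cell and fibroblast markers were above 0 (median 0.17) and 7 of 7 bile duct markers (median 1.39), against 1 of 6 markers of sinusoidal endothelium (median -0.08). No monocyte, T cell or macrophage marker passed the test in that comparison, and none was at 0 throughout a group. Their part in the members' levels was not tested.

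**Figure D3:**
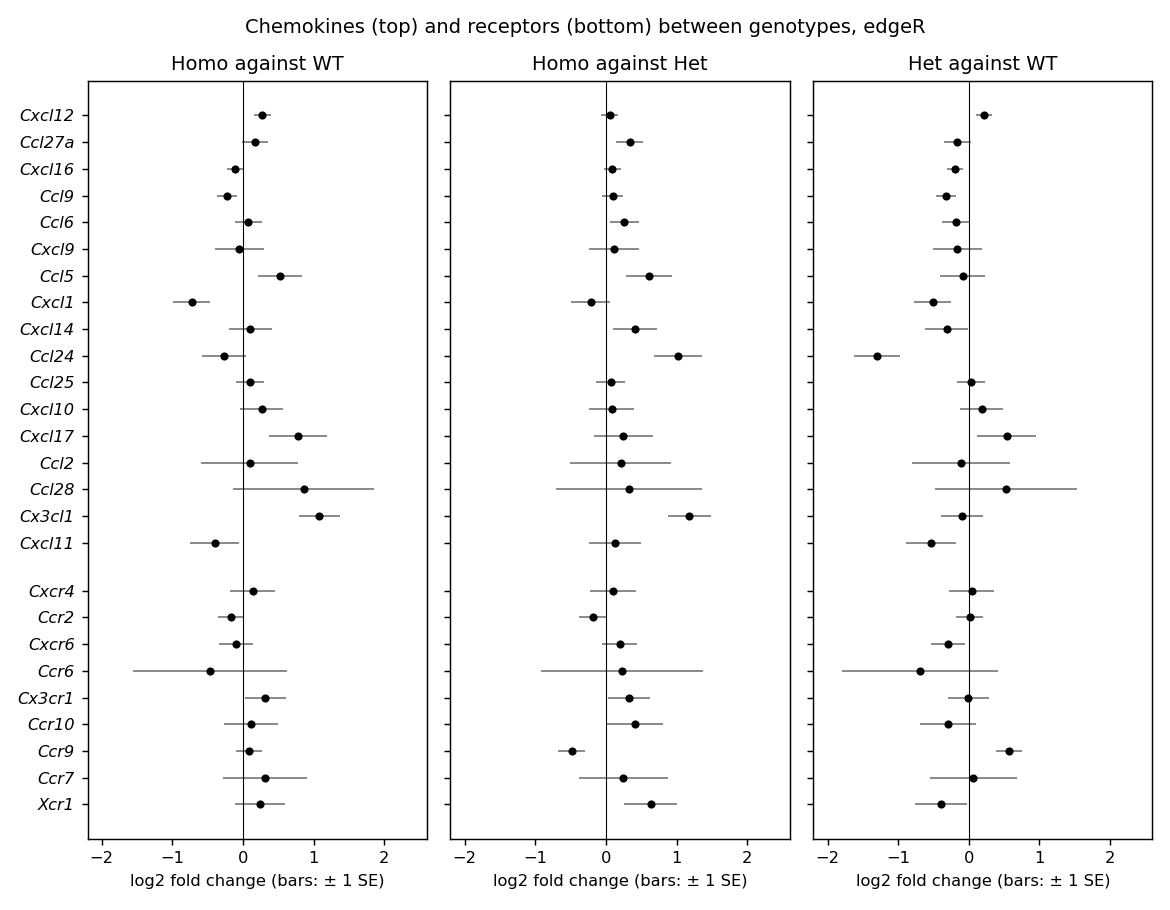
Log2 fold change of tested members (chemokines top, receptors bottom, ordered by level) in Homo against WT, Homo against Het and Het against WT, with bars of 1 SE. Most points lie right of 0 in Homo against Het, all but Cxcl1, Ccr2 and Ccr9, and Ccl28 and Ccr6 have the widest bars.

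The 12 members of highest level, 6 chemokines and 6 receptors, were not called in any of the 3 comparisons, with adjusted p between 0.324 and 0.997. Ccl27a averaged 12.1 ± 2.86 CPM in Homo (SD, n = 6), 9.56 ± 1.89 in Het (n = 6) and 10.7 ± 3.10 in WT livers (n = 7). Cxcl16 averaged 9.72 ± 0.904 CPM in Homo, 9.13 ± 1.36 in Het and 10.5 ± 1.59 in WT livers. Ccl6 averaged 3.76 ± 1.02 CPM in Homo, 3.13 ± 0.626 in Het and 3.56 ± 0.802 in WT livers. For each of these 3 genes the ranges of the groups overlapped. Among receptors, Cxcr4 averaged 1.80 ± 0.246 CPM in Homo, 1.68 ± 0.451 in Het and 1.63 ± 0.879 in WT livers. Ccr2 averaged 3.86 ± 1.08 CPM in Homo, 4.39 ± 0.799 in Het and 4.35 ± 1.03 in WT livers. The Homo mean lay above the WT mean for Cxcr4 and below it for Ccr2. Cxcr6 averaged 0.804 ± 0.251 CPM in Homo, 0.701 ± 0.129 in Het and 0.859 ± 0.226 in WT livers.

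Another 8 tested members were not called either, and their groups overlapped. Ccl2, the main monocyte attractant and ligand of Ccr2, had 0.0538 to 0.623 CPM in Homo, 0 to 0.427 in Het and 0.0278 to 0.378 in WT livers, so few counts lay behind it. Ccl25, the gut chemokine that acts on Ccr9, had 3.17 to 8.30 CPM in Homo, 4.43 to 7.33 in Het and 2.89 to 7.05 in WT livers. Cxcl10, the interferon-induced T cell attractant, had 0.694 to 1.36 CPM in Homo, 0.464 to 1.75 in Het and 0.504 to 1.33 in WT livers. These 3 ligands had medians that lay within the range of every other group. Cxcl11 had 0.283 to 0.953 CPM in Homo, 0.265 to 0.645 in Het and 0.302 to 1.19 in WT livers. Cxcl14 had 1.07 to 3.01 CPM in Homo, 0.883 to 2.79 in Het and 1.14 to 2.62 in WT livers. Cxcl17, a mucosal protein whose place among the chemokines is debated, had 0.161 to 0.397 CPM in Homo, 0.120 to 0.349 in Het and 0.0306 to 0.293 in WT livers. The Homo and Het medians of Cxcl17, 0.279 and 0.284 CPM, lay above the WT median of 0.151 CPM. Among receptors, Ccr7, which guides dendritic cells and naive T cells to lymph nodes, had 0.161 to 0.927 CPM in Homo, 0.101 to 0.621 in Het and 0 to 0.695 in WT livers. Ccr10, the receptor of Ccl27a and Ccl28, had 0.145 to 0.538 CPM in Homo, 0.116 to 0.511 in Het and 0.184 to 0.598 in WT livers.

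Ccr6 varied within each genotype more than between them. It had 27, 0, 27, 0, 0 and 121 counts in Homo livers, 37, 17, 23, 6, 40 and 1 in Het livers and 2, 81, 17, 3, 71, 87 and 0 in WT livers. Livers without a count and livers with over 80 counts occurred in both Homo and WT. Ccr6 (chr17:8236043-8257141, GRCm38, plus strand) is the only tested member on the chromosome that carries Pkd1. Its highest positive r among the marker scores was with the platelet score (r = 0.32), and its r with the B and plasma cell score was 0.08.

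The mouse number in the titles was followed by 6.4% of all genes (1054 of 16463) in a fit of genotype plus mouse number, and by 1 of 27 members, Ccl28. At an unadjusted p under 0.05 it was 4 of 27, where 20.3% of all genes passed. The direction of the members was even, with 13 of 27 slopes above 0, where 49.4% of all genes were above 0. DESeq2 called 3 members, Ccl28, Cxcl12 and Cxcl9.

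Ccl28 (chr13:119623819-119654359, GRCm38, plus strand) is an epithelial chemokine that draws cells bearing Ccr10 or Ccr3 and is known from mucosal surfaces. In order of mouse number it had 0, 0 and 0.205 CPM in WT mice 1 to 3, 0, 0 and 0.310 CPM in Het mice 4, 6 and 7, and 0.834 and 0.255 CPM in Homo mice 8 and 10. WT mice 9, 11, 12 and 13 had 0.584, 0, 1.10 and 2.30 CPM. Het mouse 14 had 1.29 CPM, Homo mice 15 to 18 had 0.884, 1.22, 2.10 and 1.17 CPM, and Het mice 19 and 20 had 1.18 and 2.31 CPM. Mice numbered 12 and above all exceeded those numbered 11 and below, and the low and the high livers occurred in each genotype. The log2 level rose by 0.31 ± 0.07 per unit of mouse number (adjusted p = 0.0109), and it was called when any 1 library was left out (adjusted p 0.0046 to 0.0276). Without WT mice 1 to 3 the slope was 0.27 ± 0.07 and not called (adjusted p = 0.0808). Within genotypes it was 0.15 ± 0.07 in Homo (adjusted p = 0.608), 0.32 ± 0.08 in Het (adjusted p = 0.218) and 0.44 ± 0.14 in WT mice (adjusted p = 0.137), all above 0 and none called.

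Number and genotype partly overlap. For Ccl28, Homo averaged 1.08 ± 0.607 CPM (SD, n = 6), against 0.599 ± 0.855 CPM in WT livers (n = 7), with a log2 fold change of 0.86 ± 1.00 (adjusted p = 0.768). With mouse number as a covariate the sign turned to -0.37, and within mice 8 to 13 it was -0.88, not called in either. The genes whose log2 CPM was most like that of Ccl28 over the 19 mice were Gm30509 (Pearson's r = 0.89), Kif13a (0.85), Cyp7a1, the rate-limiting enzyme of bile acid synthesis (0.84), Prox1, a transcription factor of hepatocytes and lymphatic endothelium (0.84), and Trim25 (0.83). These r were the highest of all tested genes, so they are a description.

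Cxcl12 and Cxcl9 followed in the fit on mouse number. The slope of Cxcl12 was 0.026 ± 0.008 per unit (adjusted p = 0.0554), and it was called when mouse 6, 7, 11 or 19 was left out (adjusted p = 0.0416, 0.0350, 0.0436 and 0.0315). Cxcl9, an interferon-gamma-induced attractant of T cells, had 2.71 to 6.26 CPM in Homo, 1.93 to 9.08 in Het and 3.78 to 10.6 in WT livers. Its slope was -0.075 ± 0.025 (adjusted p = 0.0805), and it was called without mouse 6 (adjusted p = 0.0360). Genes of like pattern were Gk (r = 0.93), Gxylt1 (0.89), Gde1 (0.88), Tapt1 (0.88) and Plekha8 (0.88) for Cxcl12. They were Ift57 (0.84), Pamr1 (0.83), Ddr1 (0.81), Kdelc2 (0.79) and Fzd1 (0.79) for Cx3cl1, and Esm1 (0.82), Sp3os (0.82), Itm2c (0.81), Capns1 (0.81) and Myl9 (0.80) for Ccl24.

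**Figure D4:**
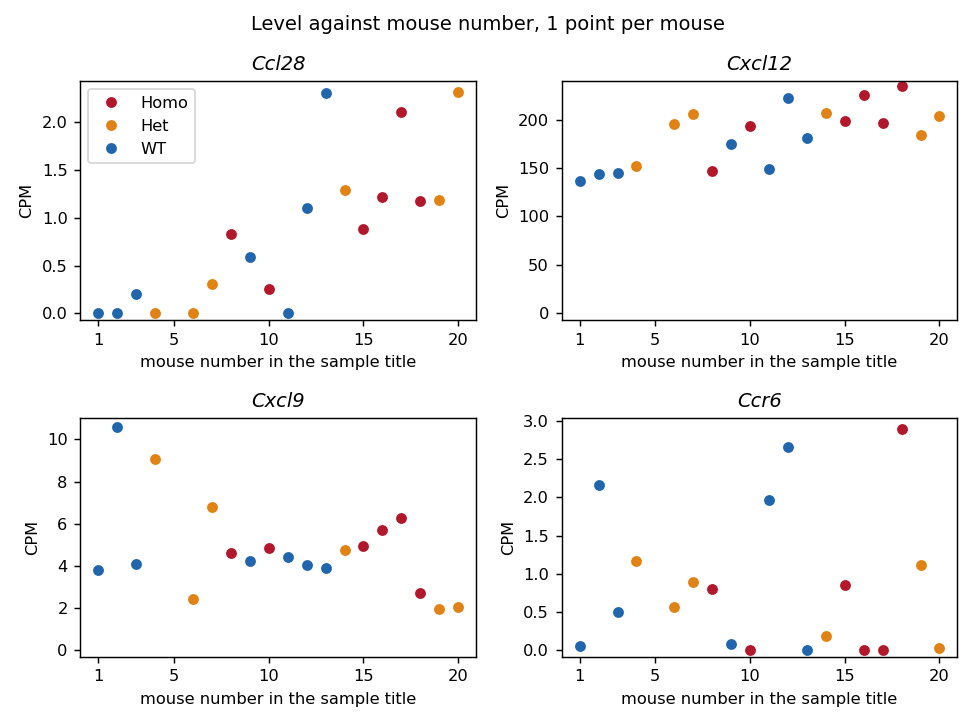
CPM of Ccl28, Cxcl12, Cxcl9 and Ccr6 against the mouse number of the sample title, with 1 point per mouse coloured by genotype. Ccl28 is at or under 0.834 CPM in mice 1 to 11 and at or above 0.884 CPM from mouse 12 on, whereas Ccr6 is scattered over the whole range.

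Which cells the members point to was described by their correlation with 18 lists of cell markers over the 19 mice. Of 486 pairs of a member and a list, 0 passed at an adjusted p under 0.05 by permutation of Pearson's r. Unadjusted, 39 passed, 28 of them with positive r. Ccl5, made by T and NK cells, came nearest. It followed the T cell score with r = 0.77 and rho = 0.73 (permutation p = 0.00017, adjusted p = 0.0826), with r = 0.67 without the 2 mice farthest from the median score and 0.72 between deviations from the genotype means. With the NK and cytotoxic cell score it had r = 0.68 (adjusted p = 0.0937) and rho = 0.80, the only pair whose Spearman's rho passed the adjustment (adjusted p = 0.0486). Ccl5 had 1.16 to 2.87 CPM in Homo, 0.589 to 1.71 in Het and 0.508 to 2.14 in WT livers. Among positive r, below Ccl24 with Kupffer cells and Cx3cl1 with bile duct cells lay Ccr9 with platelets (r = 0.68, adjusted p = 0.0937) and Ccl9 with B and plasma cells (r = 0.67, adjusted p = 0.108). Negative r included Ccl5 with red blood cells (-0.684, adjusted p = 0.0937) and Cxcl12 with macrophages (-0.575, adjusted p = 0.402).

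For the other members the list of highest positive r is named, and negative r, some of them larger in size, are left out. Among these members, it was macrophages for Ccl6 (r = 0.54), Cxcl16 (0.44) and Cxcl14 (0.43), and Kupffer cells for Cxcl1 (0.53) and Ccl2 (0.47). It was NK and cytotoxic cells for Cxcl9 (0.56), stellate cells and fibroblasts for Cxcr4 (0.57), Cx3cr1 (0.45) and Ccr7 (0.39), and lymphatic endothelium for Xcr1 (0.59), Ccl28 (0.52) and Cxcl12 (0.47). It was bile duct cells for Cxcl17 (0.35), mast cells, basophils and eosinophils for Cxcr6 (0.58), and pancreas and fat, with 1 tested marker, for Ccr10 (0.47). The lymphatic list holds Prox1, which hepatocytes also express. Adjusted p for these was at least 0.379. Ccr2 had no positive r above 0.35 with any list, the monocyte list included, nor had Ccl25, Ccl27a, Cxcl10, Cxcl11 or Ccr6. Markers of blood and tissue cells share libraries and depth with the members, so these r describe the 19 livers only.

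**Figure D5:**
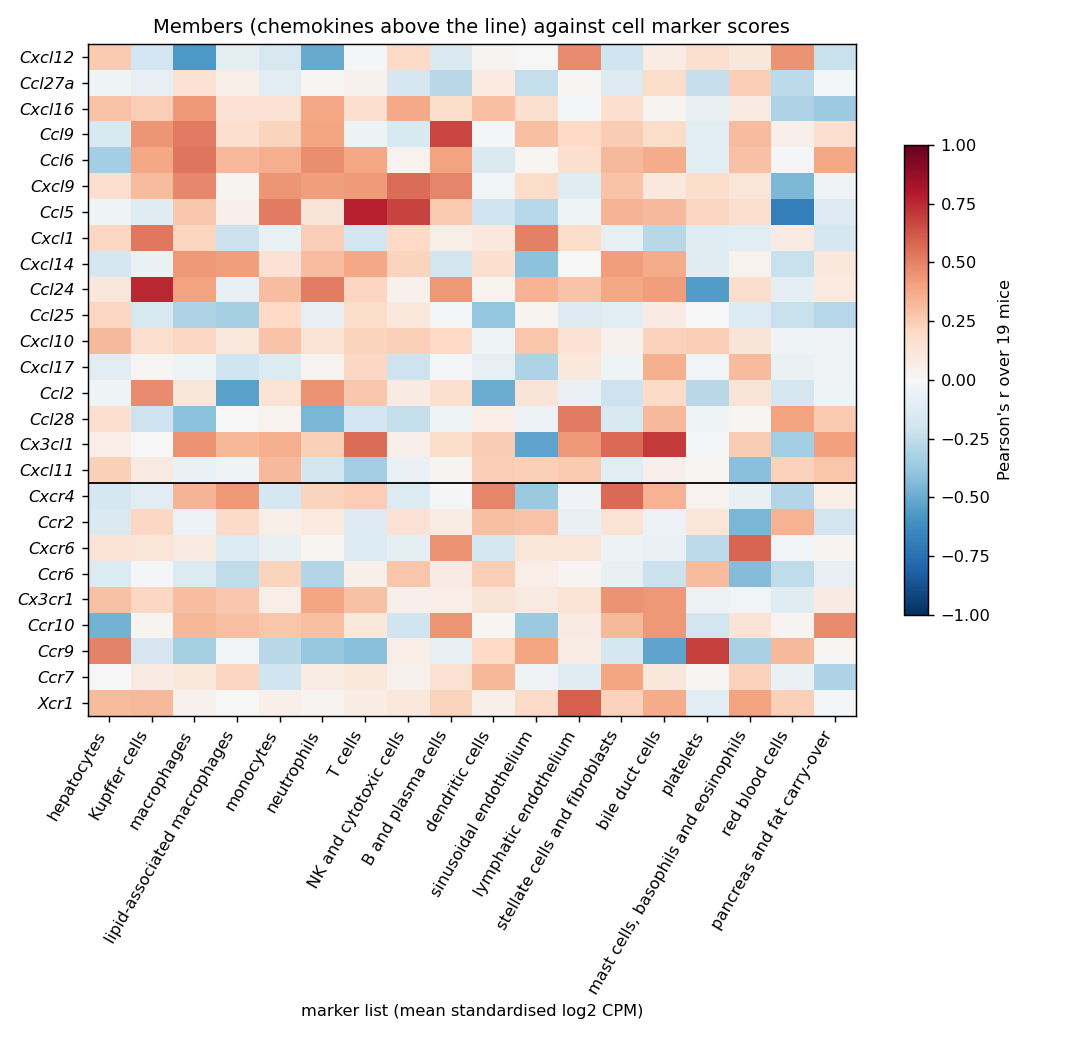
Pearson's r over the 19 mice between the log2 CPM of tested members (chemokines above the line, receptors below) and the score of each of 18 marker lists, on a scale from -1 to 1. The darkest cells are Ccl5 with T cells (0.77) and Ccl24 with Kupffer cells (0.75).

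Ligands were also set beside their receptors, and neighbours beside each other, in 12 pairs chosen after their values were seen. The p-values and their adjustment over the 12 pairs do not allow for that choice, so the r are a description. The levels of Cxcl9 and Cxcl10, which lie next to each other on chromosome 5, had r = 0.63 and rho = 0.70 (permutation p = 0.00364, adjusted over the 12 pairs p = 0.0437). Without the 2 mice farthest from the median r was 0.61, and between deviations from the genotype means it was 0.66. The third gene of the cluster, Cxcl11, had r = 0.02 with Cxcl9 (adjusted p = 0.935) and r = 0.34 with Cxcl10 (adjusted p = 0.384, and 0.42 between deviations from the genotype means), and 40.4% of its 50-base stretches also occur in other genes, a pseudogene on the other strand among them. Among the ligands set beside their receptors, none of the following passed: r was 0.39 for Cx3cl1 and Cx3cr1 (adjusted p = 0.312), 0.06 for Ccl2 and Ccr2, 0.05 for Cxcl16 and Cxcr6, and -0.09 for Cxcl12 and Cxcr4 (adjusted p = 0.935 for the last 3). Ccl25 with Ccr9 had r = 0.02, and Ccr10 had r = -0.13 with Ccl27a and 0.17 with Ccl28. The neighbours Ccl6 and Ccl9 on chromosome 11 had r = 0.49 (adjusted p = 0.203).

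Promoters of 42 of the 58 members are in the RefSeq table (GRCm38.p6). A motif of the NF-kB type, read as GGG, then 2 bases of any kind, then TTTCC on either strand, was searched in the 250 bases before each start. It occurs in 1.41% of 32851 promoters and in 6 of the 42 members: Cxcl1, Cxcl2, Cxcl3, Ccl20, Ccl9 and Ccr3. The percentages are per promoter, while a member counts once if any of its promoters matches, and the 42 members have 49 promoters. A motif of the interferon-stimulated response element type, GAAA, 2 bases of any kind and GAAA again on either strand, occurs in 2.98% of promoters and in 3 members: Cxcl10, Cxcl14 and Ccl19. A match is a description of the letters, not a site in use. The neighbours Cxcl1, Cxcl2 and Cxcl3 and the interferon target Cxcl10 are shown for contrast, since Cxcl1 was well counted here and Cxcl2 and Cxcl3 had 41 and 2 counts in all. Capitals mark the motif.
Cxcl1, chr5:90891159-90891198, plus strand: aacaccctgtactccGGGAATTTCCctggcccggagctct
Cxcl2, chr5:90903787-90903826, plus strand: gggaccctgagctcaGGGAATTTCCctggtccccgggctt
Cxcl3, chr5:90786013-90786052, plus strand: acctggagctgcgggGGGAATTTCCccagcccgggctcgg
Cxcl10, chr5:92349078-92349117, minus strand: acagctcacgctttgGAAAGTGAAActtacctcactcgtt

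The pathway around the members gave no call between genotypes either. Of all tested genes, 0.48% passed in Homo against WT, 0.0243% in Het against WT, 0.182% in Homo against Het and 6.4% on mouse number. Of the 6 atypical and related receptors, which take up chemokines without classical signalling or bind related ligands, 0 passed in the 3 comparisons. In Homo against WT the smallest p was that of Ackr1, with a log2 fold change of -1.45 ± 0.619 (SE, adjusted p = 0.329). Ackr4, which scavenges Ccl19, Ccl21 and Ccl25, averaged 17.0 ± 1.84 CPM in Homo (SD, n = 6), 17.3 ± 3.01 in Het (n = 6) and 14.7 ± 1.92 in WT livers (n = 7). Ackr3, the scavenger of Cxcl12, rose with mouse number by 0.10 ± 0.03 on the log2 scale per unit (adjusted p = 0.0487) and averaged 0.560 ± 0.359 CPM in Homo, 0.629 ± 0.306 in Het and 0.565 ± 0.271 in WT livers. Of 18 tested genes that signal below the receptors, 0 passed between genotypes and 1, the G protein subunit Gnb2, fell with mouse number by 0.02 on the log2 scale per unit (adjusted p = 0.00517). The smallest p of these genes in Homo against WT was that of Pik3cg (log2 fold change 0.618 ± 0.212, adjusted p = 0.225). Of 9 NF-kB targets and of 8 tested interferon-gamma response genes, 0 passed in any of the 4 tests. In Homo against WT their median log2 fold changes were 0.02 for the NF-kB targets and 0.17 for the interferon-gamma genes, of which 5 of 8 were above 0. The smallest p of the NF-kB targets in Het against WT was that of Il1b (log2 fold change -1.19 ± 0.378, adjusted p = 0.42). The platelet chemokine genes Pf4 and Ppbp, whose names fall outside the rule, did not pass. Pf4 averaged 0.454 ± 0.201 CPM in Homo, 0.258 ± 0.166 in Het and 0.415 ± 0.182 in WT livers. Ppbp averaged 0.174 ± 0.144, 0.301 ± 0.142 and 0.336 ± 0.142 CPM, with a log2 fold change of -0.932 ± 0.565 in Homo against WT (adjusted p = 0.504).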

How the data were processed

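Liver RNA of 19 mice (6 Homo, 6 Het, 7 WT) was prepared with a NuGen Ovation mouse kit, per the labels' protocols. The deposited values are raw whole-number counts, 1 row per gene symbol and 1 column per mouse, with no normalization by the authors. The submitters' processing notes name STAR 2.7.2b, featureCounts 1.6.4 and the build GRCm38. No source used here gives the strand setting, the annotation or what was done with reads that match several genes.

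Counts were fitted with edgeR 4.0.16 in R 4.3.3 (TMM, filterByExpr by genotype, quasi-likelihood F test, all 19 libraries in 1 fit, two-sided, Benjamini-Hochberg adjusted p under 0.05 over 16463 genes). Every adjusted p of a gene comes from it unless another tool or a correlation is named. SE is the log2 fold change over the square root of F. A second fit took genotype plus mouse number. CPM use TMM library sizes, and log2 CPM a prior count of 2. Rows named with a date (27) stayed in the totals. Exon lengths, positions and transcripts come from GENCODE M21, which matched 57 members. Correlations used 100000 permutations.

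Members and lists were chosen with earlier results of these data known. Named genes are members called in any test, the 3 of smallest p in each test, the 6 chemokines and 6 receptors of highest level per kb, and, for the 4 members of smallest p, their 5 most alike genes. One tested member is counted in the totals but is not reported here. The gene pairs, the fits within genotypes and those without mice 8, 17 and 19 were chosen after seeing the data. Alternatives were DESeq2 1.42.0, voom (limma 3.58.1), other filters and size factors, and subsets of mice. On simulated counts of 16192 tested genes, changes between Homo and WT were planted in a sample of genes of any level. The test recovered 41.8% of 1.5-fold, 71.6% of 2-fold and 90.9% of 4-fold changes. Recovery at the levels of the members was not measured. The labels do not say whether libraries came from separate litters or runs.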

Additional observations from a re-analysis of the deposited data

Results flagged for a closer look

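Each tested member was screened for a mouse far from the others of its genotype (Dixon's test at 95%), in 81 groups of 6 or 7 mice. Chance flags about 1 in 20 groups, and 5 were found. Cxcl9, the interferon-gamma-induced attractant of T cells, appears at both ends: Homo replicate 6 (mouse 18) was lowest at 2.71 CPM, where the other Homo livers had 4.62 to 6.26 CPM, and WT replicate 2 (mouse 2) was highest at 10.6 CPM, where the other WT livers had 3.78 to 4.42 CPM. Cxcl14, an epithelial and stromal chemokine, was highest at 2.79 CPM in Het replicate 6 (mouse 20), where the other Het livers had 0.883 to 1.13 CPM. Ccl6 was lowest at 1.88 CPM in WT replicate 3 (mouse 3), where the other WT livers had 3.44 to 4.25 CPM. Ccl25, the ligand of Ccr9, was lowest at 2.89 CPM in WT replicate 5 (mouse 11), where the other WT livers had 4.99 to 7.05 CPM. No cause was tested for any of these.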

How the results depend on the processing

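The count of 0 members called between genotypes was the same under limma-voom, DESeq2 size factors in edgeR, both other filters, only the 2 genotypes compared, without mice 1 to 3, with the mouse number added to the fit, without mice 8, 17 and 19, within mice 8 to 13 or 14 to 20, and without any 1 library. It differed with DESeq2, which called 1 in Homo against WT and 1 in Homo against Het. For the slope on mouse number the count of 1 was 3 with DESeq2, 2 with no filter on low counts, 2 with a filter of 1 CPM in 6 libraries, 0 within Homo mice, 0 within Het mice and 0 within WT mice (fewer samples in each), and 1 to 3 without 1 library (Ccl28 throughout, with Cxcl12, Cxcl9 or, without mouse 1, Cxcl16). No pair of a member and a marker list passed with deviations from genotype means or without the 2 farthest mice.

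The sign turned in 5 cases, none of them called: Ccl28 in Homo against WT to -0.37 with mouse number as a covariate and to -0.88 within mice 8 to 13, Cxcl12 in Homo against WT to -0.10 within mice 8 to 13, and Cx3cl1 in Het against WT (-0.10 ± 0.30) to 0.0781 without mice 1 to 3 and to 0.0623 without mouse 2 (range without 1 library -0.212 to 0.0623). The cause was not tested. No paired analysis was possible because the labels give no replicate numbers shared between genotypes.

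Members with low counts per library, such as Ccl2 and Ccr7, had wide standard errors, and changes within those errors were not detectable at this depth. The 31 untested members allow no comparison. Reads shared with copies or with genes on the other strand limit Ccl27a, Cxcl11, Cxcl16 and Ccr9.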

Other observations

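Ccr3, the eosinophil receptor of Ccl24 and Ccl11, was too unevenly counted to pass the filter on low counts. It had 0, 0, 6, 87, 33 and 3 counts in Homo livers, 0, 0, 0, 9, 98 and 4 in Het livers and 3, 1, 0, 8, 0, 8 and 117 in WT livers. The highest liver of each genotype was mouse 16 in Homo, mouse 19 in Het and mouse 13 in WT. With no filter on low counts edgeR called its slope on mouse number.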
